A study of Mus musculus with 8 samples.

Results

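The mitochondrial ribosomal protein genes were taken as the protein-coding genes whose symbol starts with Mrpl (large subunit) or Mrps (small subunit) followed by a digit. They are 78 of the 55335 genes in the deposited tables, 49 of the large and 29 of the small subunit, and pseudogenes with a -ps symbol were left out. RNA was measured in 8 libraries of mouse prostate epithelium in 4 groups of 2 libraries named A and B. Per the design text the cells were sorted as EpCAM+, CD24a+ and CD49f-low. The groups were PPK ADT, PP ADT, PPK sham and PP sham. All mice carry 1 shared prostate genotype that the sample names abbreviate as PP, and PPK mice carry Kmt2cPC-/- in addition. Kmt2c encodes a histone H3 lysine methyltransferase that acts at enhancers. The labels give only the letters ADT, which in prostate research stand for androgen deprivation therapy. ADT mice were 6.5 months old and sham mice 3.5 months old, so ADT and age cannot be told apart, and an ADT effect below means ADT together with age. What drives the deletions, and whether A and B are separate animals, is not given in the sources used here. A p-value here therefore reflects the spread between the libraries of this set alone, and that spread may be technical.

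Mitochondria keep their own ribosome, which makes the few respiratory chain and ATP synthase subunits encoded in mitochondrial DNA. Its 2 ribosomal RNAs come from mitochondrial DNA, while all its proteins come from nuclear genes, are made on cytosolic ribosomes and are imported. The small subunit binds and decodes the messenger RNA, and the large subunit forms the peptide bond and lets the new chain out through an exit tunnel. Many of the proteins have bacterial relatives and the rest are particular to mitochondria. Symbols are historical: Mrps30 and Mrps18a sit in the large subunit of the mammalian particle, and Mrps36 is now known as a component of the 2-oxoglutarate dehydrogenase complex. Prostate luminal cells are known for exporting citrate rather than oxidising it in the mitochondrion.

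The values are FPKM, fragments scaled for transcript length and for library size, computed by the authors, and the depth behind them is unknown. All 78 genes had at least 1 FPKM in at least 2 libraries and were tested, with limma on log2(FPKM + 1) over 14000 genes. A gene passed with a two-sided adjusted p under 0.05, and fold changes of genes at low FPKM are understated on this scale. Kmt2c measured 6.60 and 6.36 FPKM in PPK ADT, 10.3 and 9.33 in PP ADT, 8.67 and 8.15 in PPK sham and 13.3 and 13.9 in PP sham, so it was lower in PPK at both ages without being absent. The libraries also differed in lists of cell type markers. The summed FPKM of 6 luminal markers was 1790 to 1816 in PPK ADT, 5717 to 5775 in PP ADT, 4757 to 4837 in PPK sham and 4979 to 5046 in PP sham. The summed FPKM of 4 basal markers was 5720 to 5789 in PPK ADT, 808 to 820 in PP ADT, 1310 to 1323 in PPK sham and 844 to 851 in PP sham. For 5 squamous markers it was 1671 to 1673 in PPK ADT and at most 39.8 in the other groups, and for 4 cell cycle genes 49.7 to 50.9 in PPK ADT, 24.0 to 26.4 in PP ADT and 31.2 to 34.8 in the sham groups. The summed FPKM of 5 stromal markers was low but differed with genotype, at 21.02 to 21.13 in PPK ADT, 1.475 to 2.195 in PP ADT, 13.3 to 13.8 in PPK sham and 2.298 to 2.645 in PP sham. For 6 immune markers it was 31.3 to 31.5 in PPK ADT, 25.4 to 28.25 in PP ADT, 28.15 to 30.4 in PPK sham and 12.5 to 13.8 in PP sham. For 3 endothelial markers it was 0.811 to 0.924 in PPK ADT, 0.350 to 0.376 in PP ADT, 2.516 to 2.999 in PPK sham and 1.291 to 1.337 in PP sham. The part of these markers in the results below was not tested, and in bulk RNA fewer cells of a type and less RNA per cell cannot be told apart.

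At the level of single genes the family was uneven. Mean FPKM over the 8 libraries ran from 1.25 for Mrpl23 to 29.9 for Mrps21, with a median of 5.89. In the large subunit the highest were Mrpl24, an exit tunnel protein, at 27.1, Mrpl9 at 22.9 and Mrpl54 at 20.2 FPKM. The lowest were Mrpl23 at 1.25, Mrpl47 at 1.56 and Mrpl15 at 1.72 FPKM. In the small subunit Mrps21 led with 22.2 to 36.9 FPKM over the libraries, a range that overlaps the 23.7 to 29.9 FPKM of Mrpl24. It was followed by Mrps23 at 14.2 and Mrps7 at 14.1 FPKM, which cannot be ordered. Mrps35 at 1.59, Mrps31 at 1.78 and Mrps10 at 1.83 FPKM were the lowest. The 23.9-fold range of mean FPKM concerns transcripts, since protein was not measured.

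The order of levels followed annotated length. Across the 78 genes the Spearman correlation of mean FPKM with joined exon length (607 to 8631 bases, median 2394) was -0.744, so long gene models had low FPKM. Multiplying each value by its length, which gives FPKM times kilobases (a library-scaled fragment number), turned the correlation to 0.302 and left an 18.7-fold range (median 14.2). Mrpl13 is an example. Its 7936 annotated bases give 2.55 FPKM but 20.3 FPKM times kilobases, more than the 6.87 of Mrpl22, whose 981 bases give 7.005 FPKM. FPKM sums weighted by joined exon length came to 889784 to 894545 in every library and thus differed little, as scaling by a length near the joined exon length would give. The order of levels between genes thus depends on the scale, while changes between groups are within a gene.

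**Figure D1:**
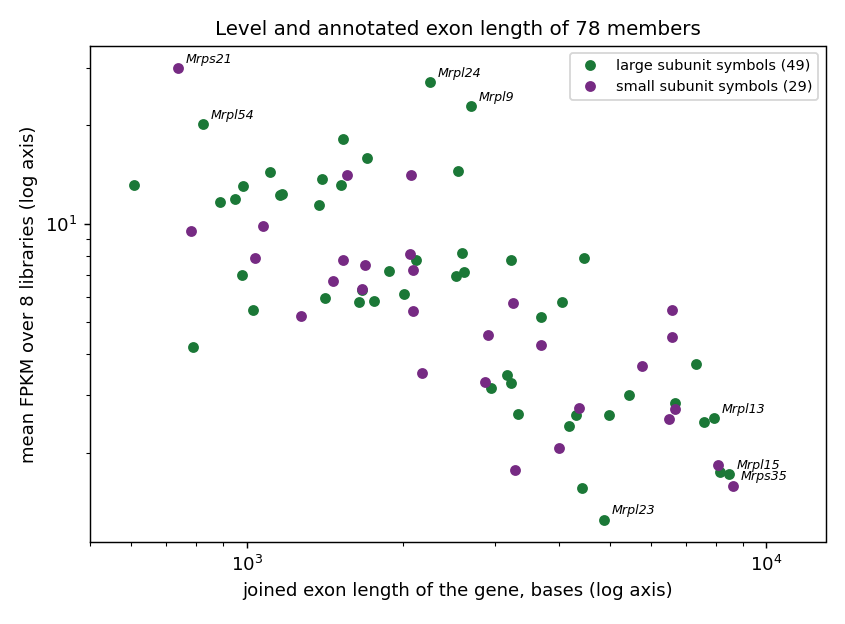
Mean FPKM over the 8 libraries (vertical, log axis) against joined exon length in bases (horizontal, log axis) for 49 large subunit (green) and 29 small subunit (purple) genes, 1 point per gene. Levels fall with length in both subunits, from Mrps21 at 29.9 FPKM to Mrps35 at 1.59 FPKM.

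As a sum, mitochondrial ribosomal protein transcripts were lowest in PP ADT. The 49 large subunit genes summed to 406.7 and 405.1 FPKM in PPK ADT, 328.3 and 339.3 in PP ADT, 423.0 and 428.4 in PPK sham and 431.3 and 418.4 in PP sham. The 29 small subunit genes summed to 186.8 and 198.4 FPKM in PPK ADT, 157.8 and 159.1 in PP ADT, 195.0 and 201.1 in PPK sham and 219.4 and 201.4 in PP sham. For both subunits the PP ADT libraries lay below all other libraries. The summed FPKM of all genes was also lowest in PP ADT, with 284015 and 286111, against 329204 and 333977 in PPK ADT and 302839 to 312319 in the sham libraries. As a share of that sum, the 78 genes made up 0.180 and 0.181% in PPK ADT, 0.171 and 0.174% in PP ADT, 0.204 and 0.208% in PPK sham and 0.210 and 0.198% in PP sham, so both ADT groups lay below both sham groups on the share.

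Single members departed from the sum in opposite ways, and 4 of them show the patterns that follow. Mrps33 (chr6:39801804-39810988), a small subunit protein with no bacterial relative, had 8.05 and 7.37 FPKM in PPK ADT, 5.09 and 4.79 in PP ADT, 5.56 and 4.85 in PPK sham and 7.69 and 7.19 in PP sham. Mrpl20 (chr4:155802878-155809975), whose bacterial relative is needed to start large subunit assembly, had 7.59 and 9.29 FPKM in PPK ADT, 5.06 and 4.90 in PP ADT, 5.40 and 4.79 in PPK sham and 6.76 and 6.61 in PP sham. Both were high in PPK ADT and PP sham and low in the other groups, with no overlap. They are the only members, of 78, that passed in all 5 comparisons made, and the share of all genes that did so was not computed. The 5 comparisons are built from the same 4 group means, so they are not independent. Mrpl9 (chr3:94443318-94451130) had 17.8 and 16.2 FPKM in PPK ADT, 19.5 and 20.0 in PP ADT, 27.7 and 29.0 in PPK sham and 25.6 and 27.6 in PP sham. Mrps12 (chr7:28739641-28741820), a protein of the decoding centre, had 6.87 and 5.50 FPKM in PPK ADT, 5.42 and 5.32 in PP ADT, 9.61 and 8.37 in PPK sham and 10.8 and 10.9 in PP sham. These last genes were low in both ADT groups.

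The RefSeq promoter windows of these 4 genes (GRCm38.p6) are shown 5' to 3' on the gene's strand, since they stand for the members that moved in opposite ways and those that moved alike. Capitals mark matches, on either strand, to an ETS core (CCGGAAG), a YY1 core (ATGGCGG), an Sp core (GGGCGG) or an NRF1 core (GCGCATG), 4 factors known as regulators of nuclear genes for mitochondrial proteins. The windows are chr6:39810887-39811186 (minus strand) for Mrps33, chr4:155802628-155802927 (plus) for Mrpl20, chr3:94443086-94443385 (plus) for Mrpl9 and chr7:28741772-28742071 (minus) for Mrps12.
Mrps33: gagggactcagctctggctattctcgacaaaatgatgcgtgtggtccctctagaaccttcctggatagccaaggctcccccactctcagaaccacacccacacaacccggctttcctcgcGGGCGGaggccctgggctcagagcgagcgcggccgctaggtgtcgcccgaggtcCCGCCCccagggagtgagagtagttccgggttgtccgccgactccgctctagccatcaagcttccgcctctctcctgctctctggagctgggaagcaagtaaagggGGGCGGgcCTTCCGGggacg
Mrpl20: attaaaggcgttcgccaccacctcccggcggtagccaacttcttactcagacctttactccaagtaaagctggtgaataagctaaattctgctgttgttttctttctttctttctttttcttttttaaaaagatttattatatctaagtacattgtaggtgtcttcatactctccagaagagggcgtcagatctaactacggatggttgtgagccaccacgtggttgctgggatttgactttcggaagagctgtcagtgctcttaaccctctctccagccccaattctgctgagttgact
Mrpl9: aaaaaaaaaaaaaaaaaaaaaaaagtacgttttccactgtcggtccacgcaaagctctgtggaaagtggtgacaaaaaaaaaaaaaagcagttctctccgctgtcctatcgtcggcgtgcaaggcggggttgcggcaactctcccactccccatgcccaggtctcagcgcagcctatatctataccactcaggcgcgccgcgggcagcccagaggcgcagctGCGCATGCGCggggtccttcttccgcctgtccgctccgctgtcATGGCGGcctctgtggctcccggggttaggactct
Mrps12: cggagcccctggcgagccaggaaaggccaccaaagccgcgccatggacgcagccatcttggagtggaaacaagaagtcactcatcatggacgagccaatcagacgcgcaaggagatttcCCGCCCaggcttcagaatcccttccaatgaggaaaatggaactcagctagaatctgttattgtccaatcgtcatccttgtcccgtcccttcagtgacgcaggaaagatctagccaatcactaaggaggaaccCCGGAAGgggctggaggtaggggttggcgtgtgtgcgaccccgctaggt
Mrps33 and Mrpl20 shared all 5 calls, yet the Mrps33 window held 4 matches and the Mrpl20 window held 0, which says only that these letters are not in that window. Mrpl9 held 1 YY1 match and 2 NRF1 matches that overlap each other as a palindrome, and Mrps12 held 1 ETS and 1 Sp match.

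Over the family these matches were common. RefSeq windows were given for 69 of the 78 genes. The ETS core was found in 24 of them (34.8%), against 12.2% of the 16445 promoters of other genes. These other genes were not limited to those tested for expression, whereas all members were tested, and the part of this in the shares was not tested. The YY1 core was found in 13 (18.8%, against 5.56%), the NRF1 core in 8 (11.6%, against 5.0%) and the Sp core in 34 (49.3%, against 48.2%). Of the members whose genotype effect was larger under ADT than under sham, 20 had a window, and the shares there were 35% for ETS, 20.0% for YY1, 15.0% for NRF1 and 35% for Sp. A match is a string of letters and not a shown binding site, and the shares carry no test.

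In ADT mice, PPK epithelium had more transcript of many mitochondrial ribosomal proteins than PP epithelium. Of 78 members, 30 were higher and 3 lower in PPK ADT than PP ADT, while over all 14000 genes 32.5% were higher and 27.1% lower. The share called higher was thus near the background for the family, and the share called lower was below it. The median log2 fold change was 0.21 in the large and 0.24 in the small subunit, against 0.05 over all genes. Of 78 members 64 were positive and 14 negative, while 46.4% of all genes were negative. In all 33 called members the libraries of the 2 groups did not overlap. The same held for every member called in each pairwise comparison, so this adds no support to the calls. With median-of-ratios scaling the split was 20 higher and 6 lower, and the median over all genes was -0.03. The shares of all genes called with that scaling are not given here.

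Among the large subunit members, Mrpl50 had 10.7 and 8.43 FPKM in PPK ADT, against 5.27 and 5.53 in PP ADT (log2 fold change 0.71, SE 0.13, adjusted p = 0.00277). Mrpl18, the protein that in mammals contacts the structural RNA of the central protuberance, had 16.4 and 16.7 FPKM in PPK ADT and 9.90 and 9.71 in PP ADT (0.70, SE 0.07, adjusted p = 0.00018). Mrpl20 stood 0.65 higher on the log2 scale (SE 0.10, adjusted p = 0.00136). Each PPK ADT library lay above each PP ADT library in these genes, which was a condition for naming them. Mrpl13 had 3.95 and 3.83 FPKM in PPK ADT and 2.03 and 2.25 in PP ADT (0.64, SE 0.08, adjusted p = 0.000391). Mrpl12, the factor-binding stalk protein, stood 0.57 higher (adjusted p = 0.000395) and Mrpl10, which anchors it, 0.34 higher (adjusted p = 0.00533). Mrpl11 of the stalk base had a log2 fold change of 0.36 and did not pass (adjusted p = 0.0783).

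In the small subunit, Mrps35 had 2.38 and 2.12 FPKM in PPK ADT and 0.946 and 0.865 in PP ADT (log2 fold change 0.77, SE 0.10, adjusted p = 0.000755). Mrps6 had 8.82 and 11.2 FPKM in PPK ADT and 5.74 and 5.68 in PP ADT (0.71, SE 0.13, adjusted p = 0.0036). Mrps26 had 3.34 and 3.90 FPKM in PPK ADT and 2.07 and 2.08 in PP ADT (0.59, SE 0.10, adjusted p = 0.00194). All 3 were separated by more than the spread of the libraries, though groups without overlap were a condition for naming them. Mrps16, mutated in a human mitochondrial translation disease, had 4.38 and 3.56 FPKM in PPK ADT and 2.14 and 2.61 in PP ADT (0.56, SE 0.11, adjusted p = 0.00531). Mrps33 stood 0.55 higher (adjusted p = 0.0013).

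The 3 members lower in PPK ADT were all of the large subunit. Mrpl46, a mitochondria-specific protein, had 4.01 and 4.82 FPKM in PPK ADT and 6.18 and 6.43 in PP ADT, and fell by 0.44 on the log2 scale (SE 0.09, adjusted p = 0.00547). Mrpl38, also mitochondria-specific, had 11.3 and 10.8 FPKM in PPK ADT and 12.8 and 13.2 in PP ADT, and fell by 0.22 (SE 0.06, adjusted p = 0.0224). Mrpl9 fell by 0.21 (SE 0.06, adjusted p = 0.0247). The calls of Mrpl38 and Mrpl9 were lost without PP ADT A, without PP ADT B or without PPK ADT B (adjusted p = 0.0575 to 0.118), with log2 fold changes of -0.26 to -0.19 for Mrpl38 and -0.27 to -0.14 for Mrpl9 over the left-out libraries, which left Mrpl46 as the 1 lower call in each case.

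**Figure D2:**
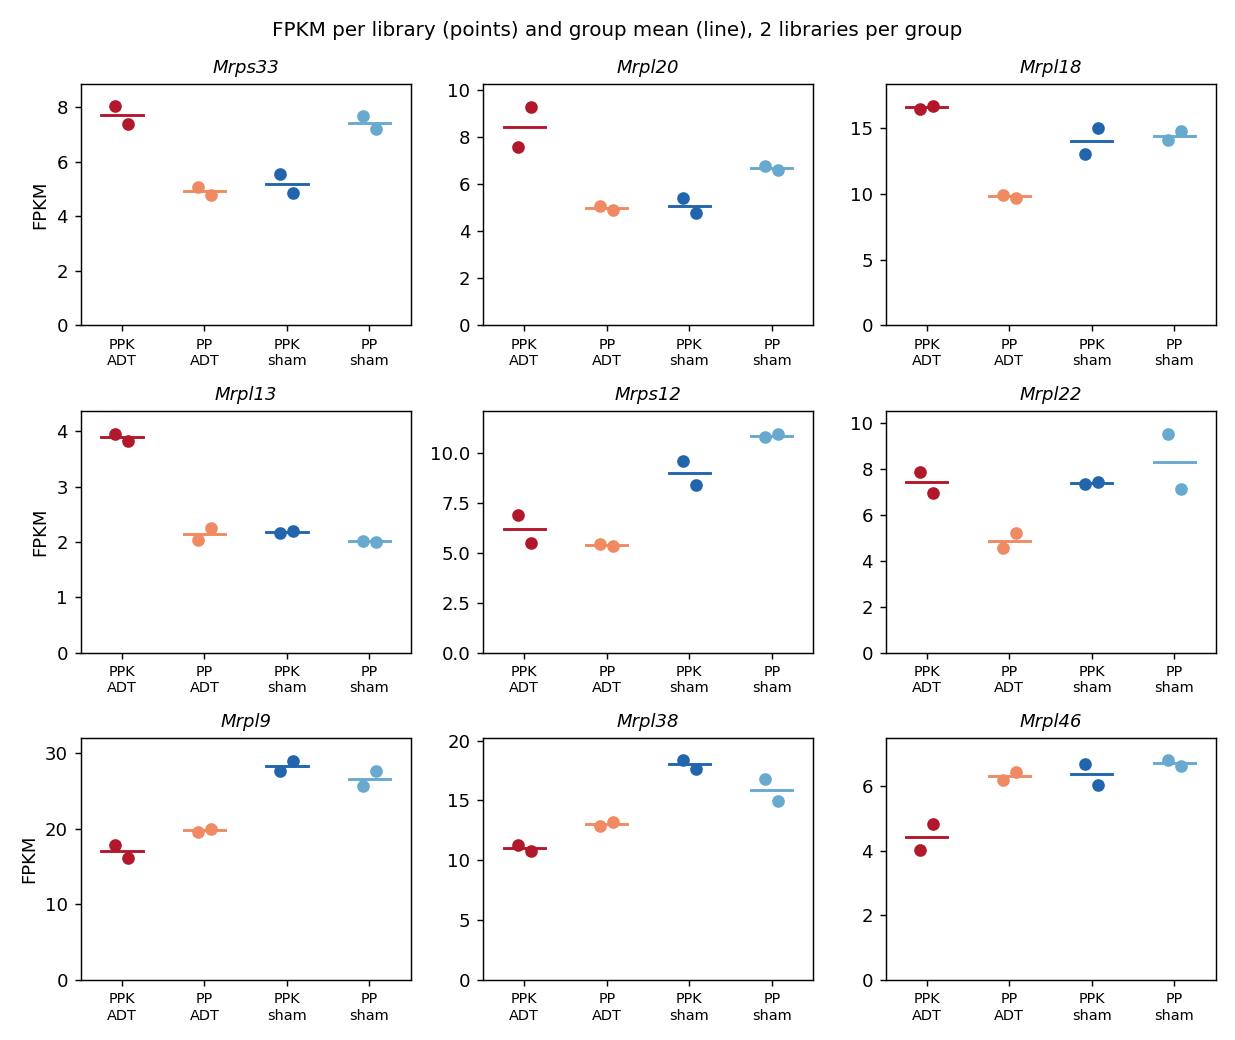
FPKM of 9 members in each library (points) with the group mean (line), in the order PPK ADT, PP ADT, PPK sham, PP sham, each axis starting at 0. Mrps33 and Mrpl20 are high in PPK ADT and PP sham, Mrpl13 is high in PPK ADT alone, and Mrpl9, Mrpl38 and Mrps12 are low in both ADT groups.

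In sham mice the genotypes differed in few members. Of 78 members, 1 was higher and 2 lower in PPK sham than in PP sham, while 13.7% of all genes were higher and 14.9% lower. At an unadjusted p under 0.05, 5 were higher and 6 lower, a threshold at which the share of all genes is not given here. The median log2 fold change was -0.03 in the large and -0.05 in the small subunit, against -0.02 over all genes. In all, 34 members were positive and 44 negative, while 52.7% of all genes were negative. The large subunit median was 0.04 without PP sham A and 0.03 without PPK sham A, so its direction rests on single libraries.

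Mrps33 was lower, with 5.56 and 4.85 FPKM in PPK sham, against 7.69 and 7.19 in PP sham, a log2 fold change of -0.45 (SE 0.08, adjusted p = 0.00858). Mrpl20 was lower, with 5.40 and 4.79 FPKM in PPK sham, against 6.76 and 6.61 in PP sham (-0.34, SE 0.10, adjusted p = 0.0469). Mrpl32, a large subunit protein that a mitochondrial protease trims before it can be assembled, was higher, with 3.08 and 3.17 FPKM in PPK sham and 1.79 and 1.95 in PP sham (0.53, SE 0.15, adjusted p = 0.0386). None of the 3 pairs of groups overlapped, which was a condition for naming these genes. The call of Mrps33 was lost without PP sham A (adjusted p = 0.0546). The calls of Mrpl20 and Mrpl32 were lost without any 1 of the sham or PP ADT libraries (adjusted p = 0.0696 to 0.186 for Mrpl20 and 0.0571 to 0.149 for Mrpl32). Their log2 fold changes stayed at -0.41 to -0.26 and at 0.49 to 0.57, and a left-out PP ADT library changes the estimate of the spread but not these fold changes. With median-of-ratios scaling the split was 1 higher and 1 lower, with no share of all genes given for that scaling. Mrpl32 did not pass under ADT, where it had 2.43 and 3.60 FPKM in PPK ADT and 2.26 and 2.65 in PP ADT, with overlapping groups.

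In PP mice, mitochondrial ribosomal protein transcripts were lower under ADT. Of 78 members, 0 were higher and 33 lower in PP ADT than in PP sham, while 19.1% of all genes were higher and 25.1% lower. At an unadjusted p under 0.05, 1 member was higher and 38 lower, a threshold at which the share of all genes is not given here. With median-of-ratios scaling 1 member was called higher and with quantile normalization 1, also without a share of all genes. The median log2 fold change was -0.29 in the large and -0.32 in the small subunit, against -0.07 over all genes. In all, 70 of 78 members were negative, against 57.6% of all genes. Fewer members were called lower without PP sham A or without PP ADT A, and the shares of all genes in those fits are not given here. Summed cell cycle genes were also lower in PP ADT than in PP sham, and the part of this in the result was not tested.

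The largest fall was that of Mrps12, at 5.42 and 5.32 FPKM in PP ADT and 10.8 and 10.9 in PP sham, a log2 fold change of -0.90 (SE 0.10, adjusted p = 0.000667). Mrps21, the small subunit gene with the highest FPKM though not with the most FPKM times kilobases (22.1, against 35.8 for Mrps5), had 22.2 and 24.7 FPKM in PP ADT and 34.7 and 36.9 in PP sham (-0.59, SE 0.10, adjusted p = 0.00441). Both were separated by several times the gap between libraries. Mrps25 had 2.45 and 4.02 FPKM in PP ADT and 5.80 and 5.54 in PP sham (-0.68, SE 0.19, adjusted p = 0.0264). Mrps28 had 6.31 and 7.96 FPKM in PP ADT and 12.4 and 10.6 in PP sham (-0.63, SE 0.18, adjusted p = 0.0297). The libraries of these last genes spread more. Their calls were lost without PP sham A, PP sham B or PP ADT A, and that of Mrps28 also without PPK sham A or PPK sham B (adjusted p = 0.083 to 0.102 for Mrps25 and 0.0515 to 0.146 for Mrps28). Their log2 fold changes were -0.95 to -0.41 and -0.77 to -0.48 over the left-out libraries.

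In the large subunit, Mrpl22, an exit tunnel protein, had 4.56 and 5.20 FPKM in PP ADT and 9.51 and 7.14 in PP sham (-0.66, SE 0.13, adjusted p = 0.00736). Mrpl50 fell by 0.59 (SE 0.13, adjusted p = 0.00973), with 5.27 and 5.53 FPKM in PP ADT and 7.83 and 9.52 in PP sham. That call was lost without PP sham B or PP ADT A (adjusted p = 0.0523 to 0.0534), with log2 fold changes of -0.72 to -0.46 over the left-out libraries. Mrpl18 fell by 0.51 (SE 0.07, adjusted p = 0.00142), with 9.90 and 9.71 FPKM in PP ADT and 14.0 and 14.7 in PP sham. Mrpl10 fell by 0.49 (SE 0.07, adjusted p = 0.00179), with 12.0 and 13.0 FPKM in PP ADT and 18.9 and 17.04 in PP sham. Mrpl12 fell by 0.35 (adjusted p = 0.00651), while Mrpl11 stood at -0.26 (adjusted p = 0.203).

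In PPK mice the members had no common direction under ADT, and most did not pass. Of 78 members, 14 were higher and 13 lower in PPK ADT than in PPK sham, while 31.9% of all genes were higher and 30.7% lower. Both shares were below the background. The median log2 fold change was -0.04 in the large and 0.03 in the small subunit, against 0.00 over all genes. In all, 39 members were positive and 39 negative, while 49.8% of all genes were negative, and 51 of 78 members did not pass. These medians have no stable sign, since the large one was 0.045 without PPK ADT A and the small one -0.06 without PPK ADT B. Fewer members were called higher without PPK sham A, PPK sham B, PPK ADT A or PPK ADT B, and fewer lower without PPK ADT B. The count of higher members was 7 with only the 2 groups compared. The shares of all genes in these fits are not given here.

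Among the risers, Mrpl20 had 7.59 and 9.29 FPKM in PPK ADT and 5.40 and 4.79 in PPK sham (0.63, SE 0.10, adjusted p = 0.00156). Mrpl13 had 3.95 and 3.83 FPKM in PPK ADT and 2.16 and 2.19 in PPK sham (0.62, SE 0.08, adjusted p = 0.000413). Mrps33 had 8.05 and 7.37 FPKM in PPK ADT and 5.56 and 4.85 in PPK sham (0.49, SE 0.08, adjusted p = 0.00214). These groups did not overlap, which was a condition for naming the genes. Mrps26 rose by 0.43 (SE 0.10, adjusted p = 0.00765), with 3.34 and 3.90 FPKM in PPK ADT and 2.57 and 2.29 in PPK sham. Mrps6 rose by 0.52 (SE 0.13, adjusted p = 0.0129), Mrps27, a pentatricopeptide repeat protein, by 0.51 (SE 0.13, adjusted p = 0.0128), Mrpl23 by 0.41 (SE 0.12, adjusted p = 0.0241) and Mrpl17 by 0.33 (SE 0.11, adjusted p = 0.0404).

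The calls of the last 4 rises did not hold with every library left out. Mrps6 had 8.82 and 11.2 FPKM in PPK ADT and 6.07 and 7.25 in PPK sham, and its call was lost without PPK sham A or PPK ADT B (adjusted p = 0.0661 to 0.0729), with log2 fold changes of 0.36 to 0.68 over the left-out libraries. Mrps27 had 7.08 and 6.87 FPKM in PPK ADT and 4.64 and 4.54 in PPK sham, and its call was lost without PPK sham B or PPK ADT A (adjusted p = 0.0554 to 0.0614), though its log2 fold change stayed at 0.49 to 0.53. Mrpl23 had 1.62 and 1.88 FPKM in PPK ADT and 0.897 and 1.27 in PPK sham, and its call was lost without PPK sham A or PPK ADT B (adjusted p = 0.111 to 0.113), with log2 fold changes of 0.28 to 0.54. A processed pseudogene, Mrpl23-ps1, is listed at a mean of 4.84 FPKM, above Mrpl23 itself, so reads of both cannot be assigned with certainty. Mrpl17 had 3.40 and 3.42 FPKM in PPK ADT and 2.81 and 2.26 in PPK sham, and its call was lost without PP sham A, PP sham B, PPK sham B, PPK ADT A or PPK ADT B (adjusted p = 0.0619 to 0.184), with log2 fold changes of 0.21 to 0.44. The PP sham libraries bear on this call through the estimate of the spread alone.

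Among the fallers in PPK, Mrpl9 had 17.8 and 16.2 FPKM in PPK ADT and 27.7 and 29.0 in PPK sham, a log2 fold change of -0.71 (SE 0.06, adjusted p = 8.63e-05), the smallest p of the family in this comparison. Mrpl38 had 11.3 and 10.8 FPKM in PPK ADT and 18.4 and 17.7 in PPK sham (-0.66, SE 0.06, adjusted p = 0.000147). Mrpl46 had 4.01 and 4.82 FPKM in PPK ADT and 6.68 and 6.04 in PPK sham (-0.45, SE 0.09, adjusted p = 0.00467). The gaps between groups in these genes exceeded the gaps within them, though groups without overlap were a condition for naming them. Mrpl44, which carries a ribonuclease III-like fold, had 4.67 and 4.53 FPKM in PPK ADT and 6.73 and 6.36 in PPK sham (-0.43, SE 0.06, adjusted p = 0.00101). Mrps12 fell by 0.48 (SE 0.10, adjusted p = 0.00671). Mrps24, which sits near the messenger RNA entry, had 6.05 and 5.80 FPKM in PPK ADT and 8.82 and 7.92 in PPK sham (-0.44, SE 0.07, adjusted p = 0.00179).

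Smaller falls were called for Mrps18c and Mrps31. Mrps18c had 9.71 and 7.70 FPKM in PPK ADT and 11.3 and 12.3 in PPK sham (-0.40, SE 0.11, adjusted p = 0.0166), and its call was lost without PPK sham B or PPK ADT B (adjusted p = 0.0638 to 0.0839), with log2 fold changes of -0.55 to -0.25. Mrps31 had 1.09 and 1.35 FPKM in PPK ADT and 2.03 and 1.78 in PPK sham (-0.39, SE 0.11, adjusted p = 0.0208), and its call was lost without PPK sham A or PPK ADT A (adjusted p = 0.0975 to 0.104), with log2 fold changes of -0.47 to -0.30. Mrps18c has 2 paralogs in the family. Of these Mrps18a fell by 0.27 (adjusted p = 0.0446) and Mrps18b stood at -0.21 (adjusted p = 0.125), so 2 of the 3 paralogs passed.

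**Figure D3:**
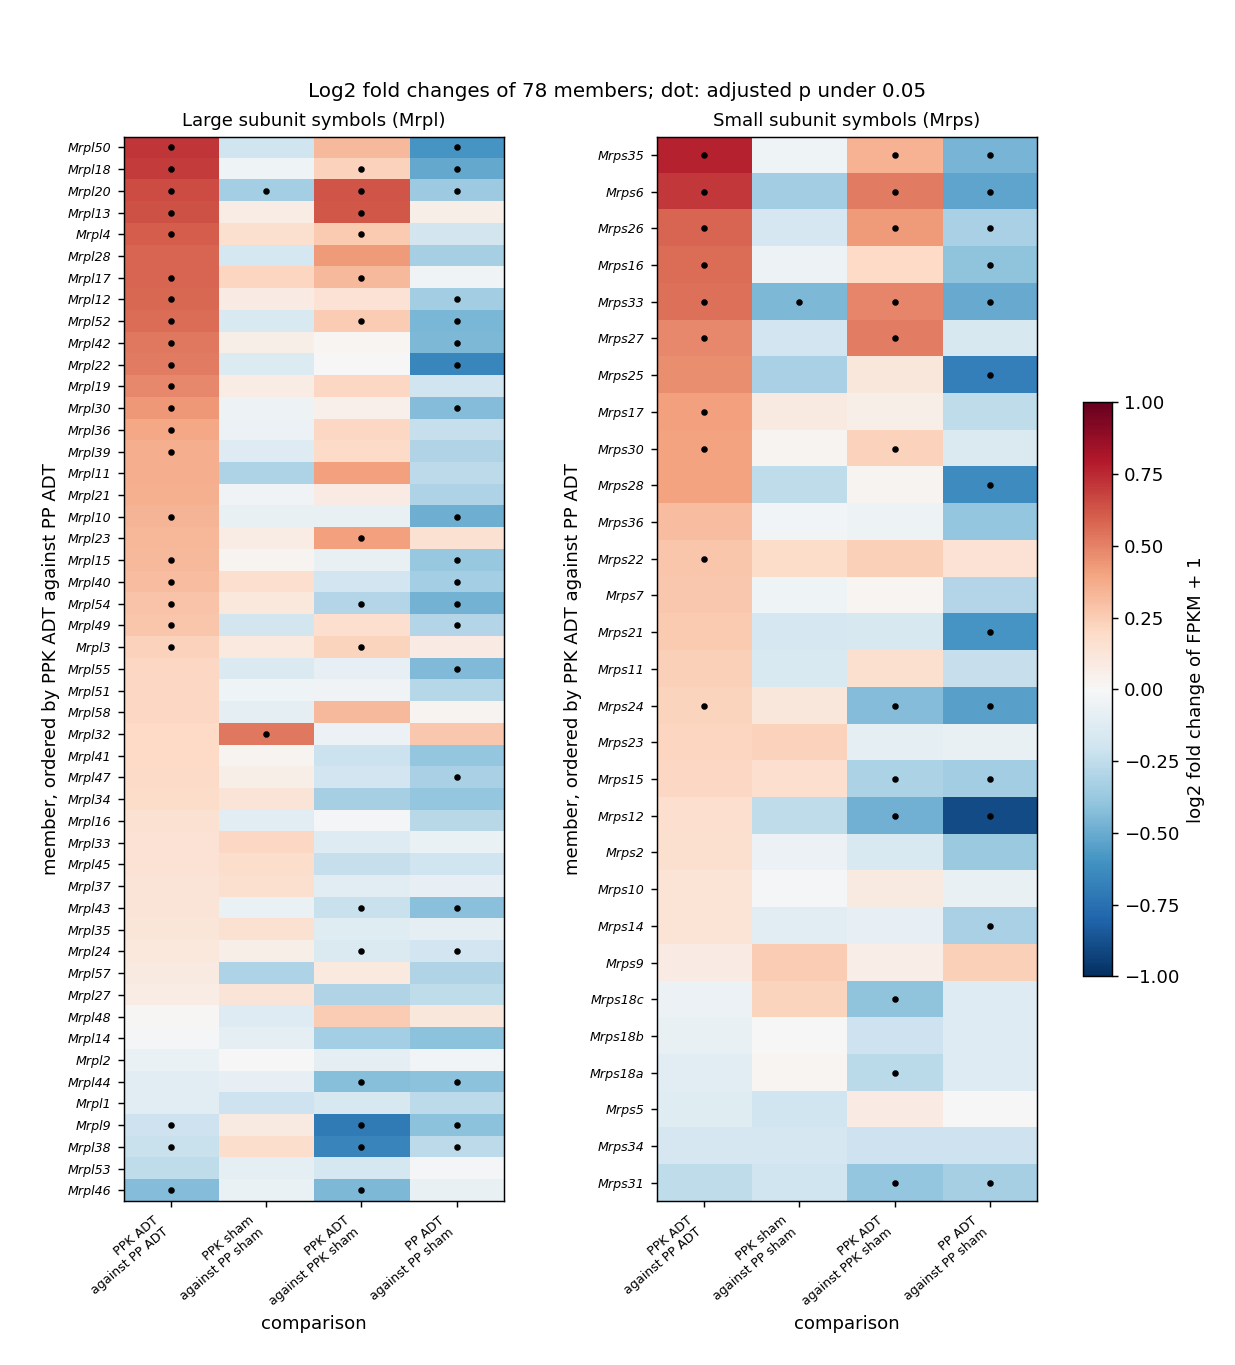
Log2 fold change of FPKM + 1 for all 78 members (rows, ordered by PPK ADT against PP ADT, large subunit left and small subunit right) in 4 comparisons (columns), with a dot where the adjusted p is under 0.05. The column PPK sham against PP sham holds 3 dots, PPK ADT against PP ADT 33, PPK ADT against PPK sham 27 and PP ADT against PP sham 33, all of the last being falls.

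The calls under ADT in PPK and in PP, which share no library, were set side by side. Higher in PPK and lower in PP were 7 members (8.97%, against 5.36% of all genes): Mrpl18, Mrpl20, Mrpl52, Mrps6, Mrps26, Mrps33 and Mrps35. Lower in both were 10 (12.8%, as of all genes): Mrpl9, Mrpl24, Mrpl38, Mrpl43, Mrpl44, Mrpl54, Mrps12, Mrps15, Mrps24 and Mrps31. A further 16 were called lower in PP alone (20.5%, against 6.94% of all genes), among them Mrpl10, Mrpl12, Mrpl22, Mrps16 and Mrps21. In PPK alone 7 were called higher (Mrpl3, Mrpl4, Mrpl13, Mrpl17, Mrpl23, Mrps27 and Mrps30) and 3 lower (Mrpl46, Mrps18a and Mrps18c), and 35 were called in neither. Over all genes 17.8% were called higher and 12.0% lower in PPK alone and 25.9% in neither, against 8.97%, 3.85% and 44.9% of members, with no test of these shares. A call in 1 genotype alone does not show a difference between genotypes, which the next test addresses. Across the 78 members Pearson's r between the log2 fold changes in PPK and in PP was 0.162, given as a description across genes of the same libraries.

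Members with high FPKM were among those lower in both genotypes. Mrpl24 had 26.8 and 26.1 FPKM in PPK ADT, 23.7 and 25.3 in PP ADT, 28.9 and 29.9 in PPK sham and 28.3 and 28.0 in PP sham, a log2 fold change of -0.14 in PPK (adjusted p = 0.0287) and -0.19 in PP (adjusted p = 0.014). Mrpl54 had 20.4 and 18.1 FPKM in PPK ADT, 14.7 and 16.6 in PP ADT, 24.6 and 23.0 in PPK sham and 21.9 and 22.2 in PP sham, at -0.29 in PPK (adjusted p = 0.0171) and -0.47 in PP (adjusted p = 0.0035). The falls in these genes were small beside that of Mrps12. The ADT effect went with gene length across members: Spearman's rho with exon length was 0.347 in PPK and 0.477 in PP (0.371 in PP with a pseudocount of 0.1), against 0.122 over all genes in PP and -0.0789 in PPK, so short gene models had the more negative values. The part of length in the result was not tested.

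**Figure D4:**
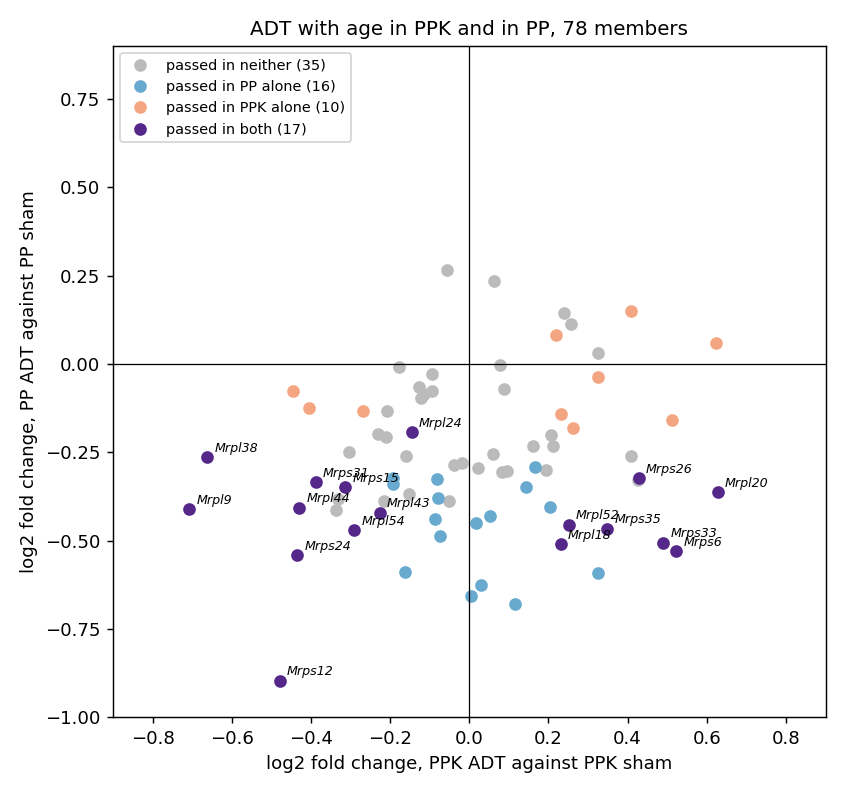
Log2 fold change of PPK ADT against PPK sham (horizontal) and of PP ADT against PP sham (vertical), 1 point per member, coloured by whether the member passed in both (17, named), in PPK alone (10), in PP alone (16) or in neither (35). Members that passed in both lie either low in both (10) or right of zero and below it (7).

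The genotype effect itself was tested for a difference between ADT and sham mice. Of 78 members, 23 had a higher and 3 a lower genotype effect under ADT, while 30.0% of all genes had a higher and 22.8% a lower one. The share of higher members was near the background. The median difference was 0.26 in the large and 0.32 in the small subunit, against 0.09 over all genes. Mrps6 had the largest difference, at 1.05 (SE 0.19, adjusted p = 0.00357), from a genotype effect of 0.71 under ADT and of -0.34 under sham. Mrps33 followed at 1.00 (SE 0.12, adjusted p = 0.000542), Mrpl20 at 0.99 (SE 0.14, adjusted p = 0.00129) and Mrpl50 at 0.92 (SE 0.18, adjusted p = 0.00526). The lower ones were Mrpl38 at -0.40 (SE 0.09, adjusted p = 0.0105), Mrpl46 at -0.37 (SE 0.13, adjusted p = 0.0473) and Mrpl9 at -0.30 (SE 0.09, adjusted p = 0.0277). Fewer members had a higher effect called without PP sham A, PPK sham A or PP ADT A. Fewer had a lower one called without PPK sham B, PP ADT A or PP ADT B. The shares of all genes in those fits are not given here. The call of Mrpl46 was lost without any 1 library other than PPK ADT B (adjusted p = 0.0512 to 0.129), and that of Mrpl9 without PP sham A, PPK sham B, PP ADT A, PP ADT B or PPK ADT B (adjusted p = 0.0561 to 0.0831).

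Counts were also taken by subunit, as the symbol gives it, and by ancestry. Mrps30, Mrps18a and Mrps36 are thus counted with the small subunit here and in the sums, medians and figures. In PPK ADT against PP ADT, 20 of 49 large and 10 of 29 small subunit members were higher, beside 32.5% of all genes. In PPK ADT against PPK sham, 8 of 49 large were higher and 7 lower, and 6 of 29 small were higher and 6 lower, beside 31.9% and 30.7% of all genes. In PP ADT against PP sham, 20 of 49 large and 13 of 29 small were lower, beside 25.1% of all genes. Of 46 members with a bacterial relative 17 were higher and 1 lower in PPK ADT than PP ADT, and of 31 without one 13 were higher and 2 lower. In PP ADT against PP sham, 19 of 46 and 14 of 31 were lower. Mrps36 was placed in neither class, the classes were written from general knowledge, and no difference between subunits or classes was tested. The classes are inexact, since Mrps18a and Mrps18b stand without a bacterial relative while their paralog Mrps18c stands with one. Neither Mrps18a nor Mrps18b passed in these comparisons, so moving them would change the class sizes and not the counts called. Of the 78, 28 members passed in 0 of the 5 comparisons, among them Mrpl2, Mrpl14, Mrps2, Mrps5 and Mrps7. The share of all genes that passed in 0 was not computed, so this count has no background beside it.

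Libraries of a group differed more in these genes than in others of their level. The median gap between A and B on the log2 scale was 0.137 in PPK ADT, 0.114 in PP ADT, 0.113 in PPK sham and 0.136 in PP sham. Over 10578 genes in the same range of levels it was 0.093, 0.092, 0.098 and 0.086 in the same groups. The largest gap was that of Mrps23 in PP sham, with 18.9 and 9.05 FPKM, beside 13.2 and 16.0 in PPK ADT, 12.7 and 12.1 in PP ADT and 16.0 and 15.3 in PPK sham. Mrps23 passed in 0 comparisons. Mrps7 had 13.0 and 16.7 FPKM in PPK ADT, 12.2 and 12.0 in PP ADT, 13.0 and 16.1 in PPK sham and 16.0 and 14.1 in PP sham, so PP ADT lay below the other groups, but the log2 fold change of 0.27 between the ADT groups did not pass (adjusted p = 0.141).

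Other parts of the particle carry other symbols. Of 5 such mitoribosome proteins, 3 were higher in PPK ADT than PP ADT, beside 32.5% of all genes. Ptcd3, a small subunit protein, had 5.57 and 5.64 FPKM in PPK ADT, 2.73 and 3.30 in PP ADT, 3.88 and 4.32 in PPK sham and 3.94 and 3.83 in PP sham, with a log2 fold change between the ADT groups of 0.72 (adjusted p = 0.000555). Dap3, the GTP-binding small subunit protein, stood 0.36 higher (adjusted p = 0.00433) and Aurkaip1 0.53 higher (adjusted p = 0.00494). Of the mitochondrial ribosomal RNAs, mt-Rnr1 of the small subunit had 506.3 and 502.8 FPKM in PPK ADT, 289.1 and 276.3 in PP ADT, 391.1 and 352.3 in PPK sham and 382.0 and 445.1 in PP sham. It stood 0.83 higher in PPK ADT than PP ADT (adjusted p = 0.000144). The large subunit RNA mt-Rnr2 had 438.7 and 424.9 FPKM in PPK ADT, 341.2 and 345.8 in PP ADT, 671.6 and 624.0 in PPK sham and 542.4 and 622.7 in PP sham. Both RNAs were lower in PP ADT than in PP sham. Under ADT in PPK, mt-Rnr1 was higher (0.44, adjusted p = 0.0028) and mt-Rnr2 lower (-0.58, adjusted p = 0.000336). How ribosomal RNA was removed from these libraries is not described here. The part of that step in the FPKM of both RNAs was not tested, so these differences may not be differences in the RNA of the particle.

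The genes that build and run the mitoribosome were listed apart, and their counts in PPK ADT against PP ADT stand beside 32.5% of all genes called higher and 27.1% called lower. Of 25 tested assembly and rRNA modification factors, 4 were higher and 1 lower in PPK ADT than PP ADT, so fewer were higher than over all genes. In PP ADT against PP sham 0 were higher and 6 lower by limma, beside 19.1% and 25.1% of all genes. Noa1, an assembly GTPase, stood 0.63 higher in PPK ADT (adjusted p = 0.0036), whereas Mtg2, another assembly GTPase, fell by 0.69 in PPK ADT against PPK sham (adjusted p = 0.000539). Of 16 translation factors, 6 were higher and 1 lower in PPK ADT than PP ADT. Tufm, the elongation factor that brings the charged tRNA, had 21.4 and 23.0 FPKM in PPK ADT, 13.0 and 11.4 in PP ADT, 12.5 and 14.3 in PPK sham and 16.4 and 14.0 in PP sham (0.81 between the ADT groups, adjusted p = 0.000594). Of 15 tested synthetases that charge mitochondrial tRNAs, 6 were higher and 0 lower, with Hars2 at 0.75 (adjusted p = 0.00371). Of 12 transcription and RNA processing factors, 9 were higher and 0 lower, with Lrpprc, which stabilises mitochondrial messenger RNA, at 0.53 (adjusted p = 0.000674) and Trmt10c, a tRNA processing subunit, at 0.69 (adjusted p = 0.000977).

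Wider families had larger medians than the members in the comparisons that involve PPK ADT, but not in PP ADT against PP sham. Over all genes 32.5% were higher and 27.1% lower in PPK ADT than PP ADT (median 0.05). The shares were 31.9% and 30.7% in PPK ADT against PPK sham (median 0.00). In PP ADT against PP sham they were 19.1% and 25.1% (median -0.07). Of 79 tested cytosolic ribosomal protein genes, 76 were higher in PPK ADT than PP ADT, with a median log2 fold change of 1.52, beside the 0.21 and 0.24 of the mitochondrial large and small subunit. In PPK ADT against PPK sham 76 were higher and 1 lower, with a median of 1.45, and in PP ADT against PP sham 5 were higher and 19 lower, with a median of -0.05. Of 78 nuclear genes for oxidative phosphorylation subunits, 56 were higher and 2 lower in PPK ADT than PP ADT (median 0.46), 44 higher and 7 lower in PPK ADT against PPK sham (median 0.28), and 2 higher and 44 lower in PP ADT against PP sham (median -0.28). Of 15 genes for abundant mitochondrial proteins, 12 were higher and 1 lower in PPK ADT than PP ADT (median 0.65), 12 higher and 2 lower in PPK ADT against PPK sham (median 0.58), and 2 higher and 4 lower in PP ADT against PP sham (median -0.12). The members' medians in PP ADT against PP sham were -0.29 and -0.32. Mitochondrial ribosomal protein genes thus had the smallest median of these 4 families in PPK ADT against PP ADT, a description with no test between lists. Cytosolic ribosomal protein genes have many near-identical pseudogenes, and their values are uncertain for that reason.

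**Figure D5:**
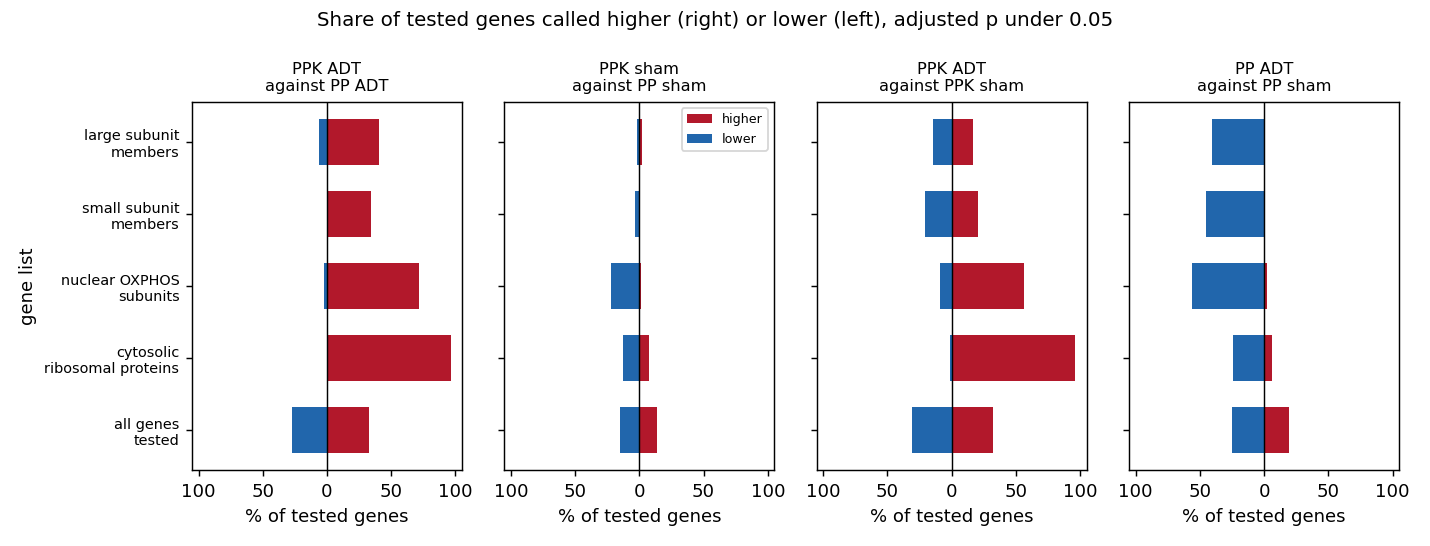
Share of tested genes called higher (red, right) or lower (blue, left) at an adjusted p under 0.05, for large and small subunit members, nuclear oxidative phosphorylation (OXPHOS) subunits, cytosolic ribosomal proteins and all 14000 genes, 1 panel per comparison. In PP ADT against PP sham the bars of both mitoribosome subunits lie only on the lower side (20 of 49 and 13 of 29), while in PPK ADT against PPK sham they are about even on both sides.

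Regulators known to act on nuclear genes for mitochondrial proteins moved in opposite ways. Of 10, 5 were higher and 1 lower in PPK ADT than PP ADT, beside 32.5% and 27.1% of all genes. Ppargc1a, a coactivator of mitochondrial biogenesis, had 0.915 and 0.598 FPKM in PPK ADT, 7.77 and 8.04 in PP ADT, 6.29 and 6.46 in PPK sham and 7.21 and 7.63 in PP sham (-2.35 between the ADT groups, adjusted p = 2.76e-06). Its relative Pprc1 had 9.89 and 9.26 FPKM in PPK ADT, 3.72 and 3.95 in PP ADT, 4.38 and 4.85 in PPK sham and 5.09 and 4.49 in PP sham (1.13, adjusted p = 4.01e-05). Myc, a transcription factor of ribosome biogenesis, had 57.8 and 49.5 FPKM in PPK ADT, 24.2 and 21.3 in PP ADT, 25.2 and 23.4 in PPK sham and 23.1 and 22.7 in PP sham (1.20, adjusted p = 4.49e-05). Thus PPK ADT stood apart from the other 3 groups in these regulators, low in Ppargc1a and high in Pprc1 and Myc. Gabpa, the ETS factor of nuclear respiratory genes, rose by 0.69 in PPK ADT against PPK sham (adjusted p = 6.87e-05), with 13.9 and 14.1 FPKM in PPK ADT and 8.10 and 8.55 in PPK sham.

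The genes lie on 17 chromosomes, with 11 of them on chromosome 11 (GENCODE M21, GRCm38). Of the 78, 18 (23.1%) have a head-to-head partner whose start lies within 1000 bases on the other strand, against 1163 of 11554 tested protein-coding genes (10.1%). Partners did not always move with the member. Mrps12 fell by 0.90 in PP ADT against PP sham, while Sars2, whose start lies 172 bases away, stood at 0.07 (adjusted p = 0.699). Mrps27 stood 0.48 higher in PPK ADT than PP ADT, and Ptcd2, 81 bases away, 0.54 higher (adjusted p = 0.00133). Mrpl30 stood 0.43 higher and its partner Mitd1, 66 bases away, fell by 0.55 (adjusted p = 0.0102).

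Overlap with other genes limits some values. The libraries are strand-specific per the labels, but the strand setting of the counting is not stated, so 23 members that overlap a gene on the opposite strand and 4 that overlap a gene on the same strand are less certain. Slc5a3, a myo-inositol transporter gene that lies on the same strand as Mrps6, had 6.33 and 6.53 FPKM in PPK ADT, 2.86 and 2.94 in PP ADT, 4.33 and 3.81 in PPK sham and 6.20 and 6.62 in PP sham. It followed the order of Mrps6 over the groups, with a difference of genotype effects of 1.48 (adjusted p = 5.58e-05). Tcp1, a chaperonin subunit gene that overlaps Mrpl18 on the opposite strand, stood 0.74 higher in PPK ADT than PP ADT, beside 0.70 for Mrpl18. Mtbp overlaps Mrpl13 and stood 0.51 higher, beside 0.64. In contrast, Mrps11 overlaps Mrpl46 and stood at 0.24 (adjusted p = 0.189) where Mrpl46 fell by 0.44, and Wdfy1, which overlaps Mrpl44, stood 0.64 higher in PP ADT than in PP sham where Mrpl44 fell by 0.41. The part of overlapping reads in these results was not tested.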

How the data were processed

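RNA of sorted prostate epithelium was measured in 8 libraries, 2 per group, and groups were taken from the sample labels. Per the labels' protocols, strand-specific TruSeq libraries were made from total RNA that had been isolated using Trizol. FPKM values were computed and deposited by the authors, 1 table per library. FastQC 0.11.2 and mm10 as genome build stand in the submitters' processing notes. Aligner, quantifier, strand setting and gene models: not given in the sources used here. Without counts the depth stays unknown, and counting intervals are not given. Symbols came from GENCODE M21 (GRCm38), which matched 55154 of 55335 identifiers and left 181 unmatched.

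Log2(FPKM + 1) of the 14000 genes with at least 1 FPKM in at least 2 libraries was fitted with limma 3.58.1 (R 4.3.3) to 4 group means, letting the variance follow the mean (residual degrees of freedom 4, prior 2.4), and p-values were Benjamini-Hochberg adjusted over all of them. The 5 comparisons were PPK against PP under ADT and under sham, ADT against sham in PPK and in PP, and the difference of the genotype effects. The fit was tested on simulated data. Software for tables was Python 3.11.15 with pandas 2.3.3 and numpy 2.4.6, for correlations scipy 1.17.1, for figures matplotlib 3.10.9.

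Members and lists were chosen with earlier results of these data known, from general knowledge of the genes. Named with values were, per comparison and subunit, the 4 largest rises and the 4 largest falls that passed with groups that do not overlap, the 4 largest differences of genotype effects in each direction, the 3 highest and 3 lowest members of each subunit, and up to 3 genes of each other list by adjusted p. Mrpl11, Mrpl12, Mrpl30, Mrps18a, Mrps18b and the neighbouring genes were named after their values were seen. Single choices were then varied: the pseudocount (0.1), the filter (none, or a mean of at least 5 FPKM), the scaling (median-of-ratios or quantile), the fit (replicate block, array weights, a variance without trend, or the 2 groups alone) and the libraries (each left out once).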

Additional observations from a re-analysis of the deposited data

Results flagged for a closer look

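A genotype effect (PPK minus PP, log2) that differed between ADT and sham mice by limma's test of the difference was found for 26 of the 78 members (33.3%). Under ADT the effect was higher for 23, while 30.0% of all genes had a higher and 22.8% a lower one, so the members' count is no larger than the background. The difference was 1.05 for Mrps6, 1.00 for Mrps33, 0.99 for Mrpl20, 0.92 for Mrpl50, 0.81 for Mrps35, 0.80 for Mrps25, 0.75 for Mrps26, 0.74 for Mrpl18, 0.71 for Mrpl52 and 0.67 for both Mrps27 and Mrpl11. It was 0.66 for Mrpl22, 0.61 for Mrps16, 0.56 for Mrpl13, 0.49 for both Mrpl39 and Mrpl12, 0.48 for Mrpl30 and 0.47 for Mrpl42. It was 0.46 for Mrpl49, 0.44 for Mrpl4, 0.43 for Mrps21, 0.41 for Mrpl10 and 0.37 for Mrps30. Under ADT the effect was lower for 3, with differences of -0.30 for Mrpl9, -0.37 for Mrpl46 and -0.40 for Mrpl38. In Mrpl20 and Mrps33 PPK was called higher than PP under ADT and lower than PP under sham.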

How the results depend on the processing

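Of 45 fold changes of named members, 29 stayed past the threshold under all alternatives run, 9 were lost under at least 1 setting other than a left-out library, and 0 changed sign. Shares of all genes called under these alternatives are not given, so the counts below have no background beside them. Higher in PPK sham than in PP sham were 0 members with no filter. The count was also 0 with a mean of at least 5 FPKM, but there Mrpl32, the 1 higher member, was not tested (mean 2.615 FPKM). Lower was 1 with no filter, median-of-ratios scaling, no trend or the replicate block. In PPK ADT against PP ADT, 19 were higher with a mean of at least 5 FPKM, where fewer members are tested, and 6 lower with median-of-ratios scaling (1 to 3 with a library left out). In PP ADT against PP sham, 1 was higher with median-of-ratios scaling and 1 with quantile normalization (0 to 1), and 18 to 33 were lower with a library left out. In PPK ADT against PPK sham, 7 were higher with no filter, with a mean of at least 5 FPKM and with only the 2 groups compared (7 to 12), and 7 to 13 were lower. For the difference of genotype effects, no filter gave 15 higher (14 to 19 with a library left out) and 1 lower (1 to 3).

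The medians of log2 fold changes kept their direction in PPK ADT against PP ADT, in PP ADT against PP sham and in the difference under every alternative run. In PPK ADT against PP ADT the large subunit median was 0.30 with a pseudocount of 0.1, 0.28 with a mean of at least 5 FPKM and 0.13 with median-of-ratios scaling (0.21 to 0.28 with a library left out), and the small one was 0.16 with median-of-ratios scaling. In PP ADT against PP sham the large one was -0.36 with a mean of at least 5 FPKM, -0.22 with median-of-ratios scaling and -0.23 with quantile normalization (-0.32 to -0.23). For the difference the large one was 0.33 with a pseudocount of 0.1, 0.18 with median-of-ratios scaling and 0.19 with quantile normalization (0.19 to 0.33), and the small one 0.22 with median-of-ratios scaling (0.21 to 0.39). The small one was -0.14 in PPK sham against PP sham (-0.13 to -0.049) and -0.087 in PPK ADT against PPK sham (-0.061 to 0.036) with a mean of at least 5 FPKM. The large one was -0.033 to 0.045 in PPK sham against PP sham and -0.072 to 0.045 in PPK ADT against PPK sham with a library left out. The cause of these shifts was not tested. Same-letter libraries showed almost no common deviation across groups (correlations of -0.008 to 0.057). This does not settle whether the letters mark pairs, since their origin is not given. The block gave a count of 1 member lower in PPK sham, against 2 without it. With 1 library left out, the lone library of its group is assumed to vary like the others. Depth is unknown, so what it limits could not be computed.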
